A study of Mus musculus with 113 samples.

Results

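The Zic genes encode zinc finger transcription factors related to the Gli and Glis proteins, and 4 of them, Zic1, Zic2, Zic4 and Zic5, were followed by their gene symbols through every deposited expression table of mouse embryonic stem cells (mESCs) undergoing neural induction. Other members of the family were not analysed here. The 4 genes stood among 23739 gene symbols found in any of 4 tables. All 4 were listed for the cell populations of the floating aggregate protocol and for the E14 line, 3 were listed for adherent monoculture (no row for Zic4), and 2, Zic2 and Zic5, were listed for single cells.

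The R1 mESC line was differentiated in SFEB culture, in which cells float as serum-free aggregates resembling embryoid bodies, or as an adherent monolayer, and RNA-seq was made from whole cultures (cell population RNA-seq, cpRNA-seq) or from hand-picked single cells (scRNA-seq). The first SFEB series had 14 times from 0 to 142 h, a parallel SFEB series had 8 times from 0 to 216 h, adherent monoculture had 15 times from 0 to 216 h, and 64 cells came from the 8 times of the parallel series, 8 cells at each. A separate experiment used the E14 mESC line, wild type (WT) or carrying a CRISPR deletion in Fyn (Fyn KO, 1 clone), which encodes a Src family tyrosine kinase, at day 0 and day 4 of neural induction with 3 samples in each of 4 groups. The labels of the E14 samples describe both protocols and do not say which was used, and nothing says whether their replicates were separate cultures, so their p-values measure the spread between these samples, which may be technical. Each population time point was 1 library, so a difference between neighbouring times had no replicate check. Levels were in FPKM, which is scaled by transcript length and library size. FPKM keeps no read totals, so the depth behind each value is not given. The authors had adjusted the SFEB population levels between batches with ComBat, so ratios and folds there compare adjusted values.

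Zic proteins bind GC-rich DNA through zinc fingers like those of the Gli factors and also act as partners of other transcription factors. In the embryo Zic2 and Zic5 are active from the epiblast onward and through the early neural plate, while Zic1 and Zic4 are known mainly from the dorsal neural tube, the neural crest border, the somites and the cerebellum. The genes lie as head-to-head neighbours that are read in opposite directions, Zic1 with Zic4 and Zic2 with Zic5. In the NCBIM37 (mm9) build with Gencode M1 annotation, Zic1 (ENSMUSG00000032368.8) spans chr9:91252896-91260648 on the minus strand and Zic4 (ENSMUSG00000036972.8) spans chr9:91257251-91284186 on the plus strand. Zic5 (ENSMUSG00000041703.7) spans chr14:122856017-122864899 on the minus strand and Zic2 (ENSMUSG00000061524.7) spans chr14:122874604-122879074 on the plus strand, 9704 bases away.

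The spans of Zic1 and Zic4 overlap by 3398 bases in that annotation. Within them 60 exonic bases (chr9:91257297-91257356), all coding in Zic1, belong to exons of both genes, through 1 of the 12 annotated Zic4 transcripts. The library kit does not mark strand, so reads in those 60 bases cannot be told apart, and their part in the levels of Zic4 was not tested. The exons of Zic2 and Zic5 do not overlap.

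The 250 bases upstream of the annotated starts are shown for the 3 members with an entry in RefSeq's promoter table (build GRCm38.p6), because the neighbours are compared below as pairs and begin close together: the starts of Zic1 and Zic4 in that table are 3204 bases apart. Each is written 5′ to 3′ on the gene's own strand, and capitals mark matches on either strand to CCAAT, a box bound by NF-Y proteins, or to the GC box bound by Sp1 family proteins, spelled GGGCGG.
Zic1 promoter, chr9:91365769-91366018, minus strand: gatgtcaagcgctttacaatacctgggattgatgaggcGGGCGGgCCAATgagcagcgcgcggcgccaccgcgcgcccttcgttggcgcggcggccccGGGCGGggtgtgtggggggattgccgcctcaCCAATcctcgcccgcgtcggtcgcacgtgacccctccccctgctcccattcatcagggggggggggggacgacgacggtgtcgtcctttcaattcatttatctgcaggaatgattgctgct
Zic4 promoter, chr9:91368722-91368971, plus strand: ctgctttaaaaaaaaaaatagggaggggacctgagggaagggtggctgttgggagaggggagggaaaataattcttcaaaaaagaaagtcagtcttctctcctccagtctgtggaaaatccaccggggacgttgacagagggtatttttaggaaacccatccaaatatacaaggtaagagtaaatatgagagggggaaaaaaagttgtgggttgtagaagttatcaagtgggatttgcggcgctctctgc
Zic5 promoter, chr14:122465659-122465908, minus strand: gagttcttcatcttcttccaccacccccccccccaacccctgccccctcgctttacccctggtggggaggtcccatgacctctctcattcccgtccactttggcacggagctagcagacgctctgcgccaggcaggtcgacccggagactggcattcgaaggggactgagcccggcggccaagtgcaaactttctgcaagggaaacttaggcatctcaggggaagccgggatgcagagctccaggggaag
The Zic1 window held 2 matches to each motif, and the windows of Zic4 and Zic5 held none. Among all 32851 promoters of the same length, 33.8% held the first of these and 32.7% held the GC box. The TATA box, searched as TATAAA and found in 12.4% of all promoters, was in none of the 3 windows, and the matches marked in capitals do not overlap one another. The Zic1 window was 66.0% G or C with 27 CpG dinucleotides, more than 91.4% of promoters, against 11 CpG for Zic5 and 4 for Zic4 (median of all promoters, 6).

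Zic2, which acts in patterning of the forebrain midline, was the highest of the 4 members in every population sample but the last of the parallel SFEB series, and its level followed an arch over induction. In the first SFEB series it was 4.86 FPKM at 0 h, 6.16 at 1 h, 6.17 at 2 h and 10.6 at 8 h, stood at 31.7 by 22 h, and reached its highest level of 64.02 FPKM at 80 h followed by 46.4 at 92 h, 38.9 at 103 h, 26.2 at 126 h and 20.6 at 142 h. In the parallel SFEB series Zic2 was 13.5 FPKM at 0 h, 15.3 at 9 h, 48.6 at 38 h, 51.6 at 60 h, 62.2 at 84 h, 38.8 at 106 h, 14.7 at 144 h and 13.9 at 216 h. Both courses had their highest sample at like times, 80 and 84 h. In adherent monoculture the course had the same shape with a lower top: Zic2 was 10.3 FPKM at 0 h, 22.2 at 20.5 h, 50.3 at 68.5 h, 32.9 at 140.5 h, 17.3 at 144 h and 13.996 at 216 h.

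Zic5, encoded beside Zic2, was lower, and its highest sample came earlier in each series, at 68, 60 and 53.5 h against 80, 84 and 68.5 h for Zic2. In the first SFEB series the lowest, median and highest levels of Zic5 were 3.19 FPKM at 2 h, 10.9 FPKM and 22.4 FPKM at 68 h, with 15.6 at 22 h and 21.1 at 42.5 h, and 4.90 at 142 h. The parallel series gave Zic5 levels of 8.52 FPKM at 0 h, 8.42 at 9 h, 18.1 at 38 h, 18.6 at 60 h, 16.6 at 84 h, 9.56 at 106 h, 4.90 at 144 h and 2.71 at 216 h. In adherent culture Zic5 ran from 4.16 FPKM at 0 h to 20.3 at 53.5 h and 3.02 at 216 h. Zic5 was at or above 50% of its highest level from 22 to 92 h in the first series, and Zic2 from 34 to 103 h. In the parallel series both genes were above that mark at the same 4 times, from 38 to 106 h.

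Zic2 was above Zic5 in all 37 population samples, by a ratio that was lowest early and highest late. The ratio of Zic2 to Zic5 FPKM in the first series was lowest at 0 h (1.03) and highest at 126 h (5.17), in the parallel series lowest at 0 h (1.58) and highest at 216 h (5.13), and in adherent culture lowest at 2.5 h (1.78) and highest at 140.5 h (5.11).

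Zic1, which patterns the dorsal neural tube and cerebellum, was low at first in every series and high late in both SFEB series. In the first SFEB series it was 0.780 FPKM at 0 h, 0.930 at 1 h, 0.244 at its lowest at 54.5 h, 0.670 at 68 h, 1.56 at 80 h and 3.27 at 92 h, then 23.7 at 103 h, 6.03 at 126 h and 13.4 at 142 h. The 103 h sample was the highest of the series and stood above both of its neighbours in time. In the parallel series Zic1 was 0.859 FPKM at 0 h, 0.510 at 9 h, 0.338 at 38 h, 0.194 at 60 h, 0.793 at 84 h, 3.62 at 106 h, 5.41 at 144 h and 15.3 at 216 h, with no such single high sample. In adherent culture Zic1 was 0.147 FPKM at 20.5 h, 3.53 at 80.5 h, 1.14 at 140.5 h, 9.54 at 144 h and 1.11 at 216 h. Per the study's methods, cells of both protocols were replated onto coated dishes on the day of the 144 h samples. Whether those samples were taken before or after replating is not stated. The part of replating in the levels at 144 h and 216 h was not tested.

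The 144 h adherent sample also had 12.3 FPKM of Wnt1, a signal of the dorsal midline that was chosen after its values were seen, against 5.66 at 140.5 h and 2.84 at 216 h. In the same sample the summed level of the 10 fibroblast markers was 432 FPKM, against 200 at 140.5 h and 362 at 216 h, but Sparc alone made up 382 FPKM of it, its highest adherent level. Of the other 9 markers, 4 had their lowest adherent level in this sample, namely Col1a1 (11.7 FPKM), Col3a1 (3.86), Dcn (0.736) and Thy1 (2.61), and 5 had it at other times. The summed level of the 4 listed mesoderm and somite genes was 28.6 FPKM there, against 6.80 at 140.5 h and 16.2 at 216 h, and that of the 5 listed endoderm genes was 66.2 FPKM, against 33.9 and 74.7. The mesoderm gene T (22.7 FPKM), the endoderm genes Sox17 (10.9), Gata4 (11.9) and Gata6 (7.24), and the floor plate genes Foxa2 (13.6) and Shh (11.9) all had their highest adherent level in this sample, and the part of such cells in the Zic1 value was not tested. The fibroblast, mesoderm, endoderm and floor plate genes named here were also chosen after their values were seen.

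Zic4 stayed below 1 FPKM in most samples and was high where Zic1 was high. In the first SFEB series Zic4 was 0.130 FPKM at 0 h, 0.177 at 1 h and 0.145 at 2 h, then 0.0590 at 80 h, 0.174 at 92 h, 1.85 at 103 h, 0.404 at 126 h and 1.08 at 142 h. In the parallel series it was 0.0834 FPKM at 0 h, 0.0475 at 9 h, 0.0390 at 84 h, 0.154 at 106 h, 0.375 at 144 h and 1.76 at 216 h. Zic4 was at 1 FPKM or more in 3 of 22 SFEB populations. The lowest values, 0.00517 FPKM in 4 samples of the first series and 0.00961 FPKM in 2 of the parallel series, were each repeated exactly. They are not read as measured levels, but they enter the folds and correlations of Zic4 as listed.

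**Figure D1:**
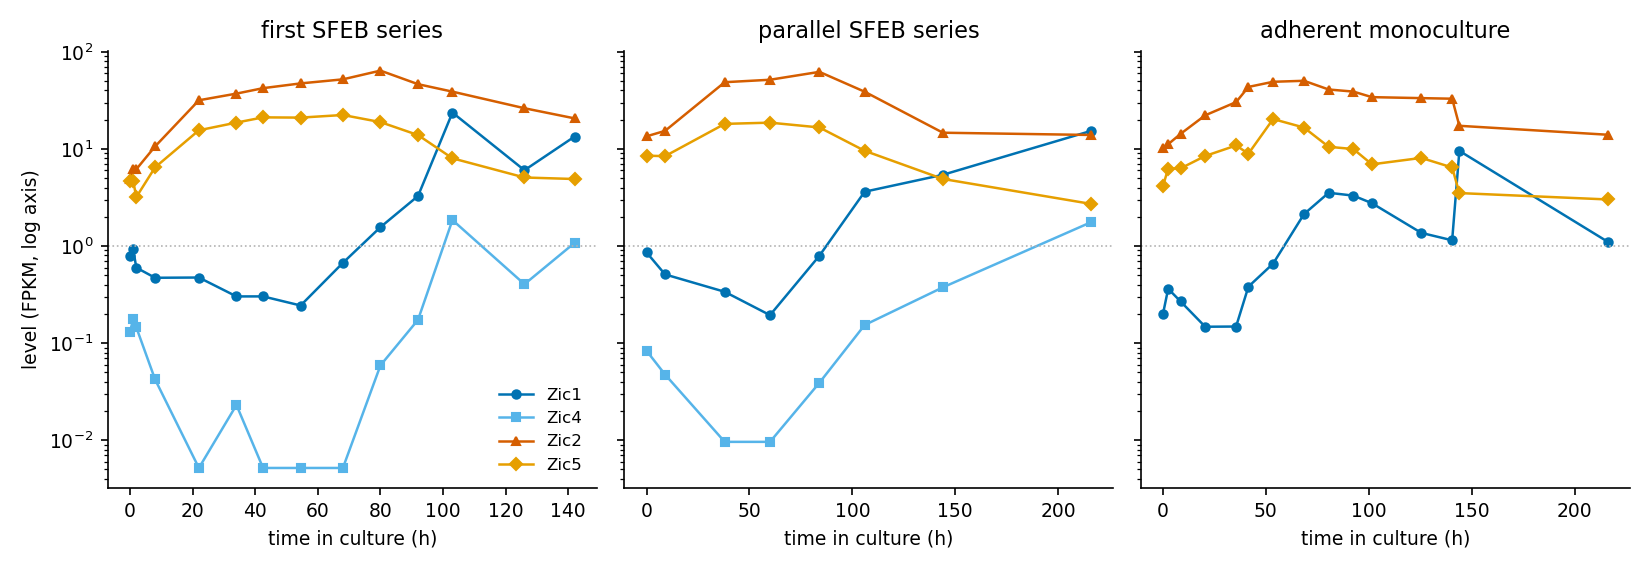
Level of each Zic gene (FPKM, log axis) against time in culture (h) in the first SFEB series, the parallel SFEB series and adherent monoculture. Each point is 1 library and the dotted line marks 1 FPKM; Zic2 and Zic5 arch over the course, while in both SFEB series Zic1 and Zic4 are lowest in the middle and high late. Adherent Zic1 is lowest at 20.5 h and has a single high sample at 144 h, and Zic1 of the first series has one at 103 h.

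At the start of both SFEB series Zic1 and Zic4 were above their later minimum at the same times as fibroblast markers. The summed level of the 10 fibroblast markers, which were all listed in the table, was 1064 FPKM at 0 h, 516 at 8 h and 65.9 at 54.5 h in the first series, and 1129 at 0 h, 530 at 9 h and 83.7 at 60 h in the parallel series. The collagen gene Col1a1 alone was 316 FPKM at 0 h and 3.10 at 54.5 h in the first series. The mESCs had been passaged once without feeder cells before induction, and the part of remaining feeder RNA in the early Zic1 and Zic4 levels was not tested. At 103 h, when Zic1 was highest, the same sum was 113 FPKM, and at 142 h it was 53.9. It was 63.0 FPKM at 80 h, 90.2 at 92 h and 71.9 at 126 h, so it too was above both neighbours at 103 h. The part of such cells in that Zic1 level was not tested. In these bulk samples more cells expressing a gene and more RNA per cell cannot be told apart.

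Called changed where the highest sample was at least 4-fold the lowest on FPKM + 1, Zic1, Zic2 and Zic5 were called in every series and Zic4 in neither SFEB series. This is a description with no test. Among genes at 1 FPKM or more in at least 3 samples, 20.8% were called in the first SFEB series, 16.7% in the parallel series and 22.5% in adherent culture. Zic4 did not reach that filter in either series, and its folds were 2.84 and 2.73. Zic1 had the widest range of the 3, with folds of 19.8, 13.7 and 9.19 in the first, parallel and adherent series, and without the highest sample of each, a check added after seeing the data, they were 11.6, 5.37 and 3.95, the last below the mark. Zic2 gave 11.1, 4.36 and 4.55, and Zic5 gave 5.57, 5.29 and 5.30. With the second lowest and second highest samples in place of the extremes, Zic5 was under 4-fold in all 3 series (3.89, 3.24 and 3.902), Zic2 in the parallel series (3.52) and Zic1 in adherent culture (3.95).

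The order of the levels changed late. Zic2 was highest, then Zic5, Zic1 and Zic4, until 92 h of the first series, and from 103 h on Zic1 stood above Zic5. In the parallel series Zic1 passed Zic5 by 144 h (5.41 against 4.90 FPKM) and at 216 h was also above Zic2 (15.3 against 13.9 FPKM). In adherent culture Zic1 was above Zic5 at 144 h only (9.54 against 3.51 FPKM). With 1 library a time, levels as near as those of Zic1 and Zic5 at 144 h, or of Zic1 and Zic2 at 216 h, in the parallel series cannot be ranked.

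The level of each member was also set against collection time, as Pearson's r and Spearman's rho of log2(FPKM + 1) over the samples of a series, with 11 relations in all. Zic1 had a positive r in each series. Zic1 did not rise steadily in adherent culture, with 3.53 FPKM at 80.5 h, 1.14 at 140.5 h, 9.54 at 144 h and 1.11 at 216 h. In the first series its r was 0.79 (permutation p = 0.00066, adjusted p = 0.00726) and rho 0.56 (permutation p = 0.0381, adjusted p = 0.161). Over the 8 samples of the parallel series its r was 0.91 (exact permutation p = 0.00322, adjusted p = 0.0176) and rho 0.67 (exact permutation p = 0.0831, adjusted p = 0.228). In adherent culture its r was 0.59 (permutation p = 0.0204, adjusted p = 0.0449) and rho 0.74 (permutation p = 0.00225, adjusted p = 0.0247). With the 2 times most distant from the median left out, these r were 0.66, 0.86 and 0.71. In adherent culture the 144 h sample was among those left out. Against log2(time + 1) in place of time they were 0.51, 0.54 and 0.61, and none passed (adjusted permutation p = 0.149, 0.273 and 0.0628); rho is the same on either time scale and passed in adherent culture alone.

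For Zic4, r with time was 0.61 in the first series (permutation p = 0.0126, adjusted p = 0.0346) and 0.86 in the parallel series (exact permutation p = 0.00481, adjusted p = 0.0176), and rho was 0.36 (permutation p = 0.198, adjusted p = 0.363) and 0.61 (exact permutation p = 0.118, adjusted p = 0.260). Without the 2 farthest samples its r was 0.46 in the first series, where the relation rests on them, and 0.82 in the parallel series, where r was close to before but 6 samples no longer passed the threshold. Against log2(time + 1) its r was 0.34 and 0.46, and neither passed (adjusted permutation p = 0.296 and 0.273). None of the 6 relations of Zic2 and Zic5 passed the threshold (r from −0.66 to 0.58); both courses are arches, which a straight relation does not describe. Zic2 did pass under some alternatives, with r = 0.87 against log2(time + 1) and 0.83 without the 2 farthest times in the first series (adjusted permutation p = 0.00363 and 0.0162), and 0.65 without them in adherent culture (adjusted permutation p = 0.0428). These permutations treat the samples of a course as exchangeable, although successive times of 1 course are not independent. The share of all genes that would pass the same relation is not given here.

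Genes that are neighbours on the chromosome moved together in the populations. Over the first SFEB series Zic1 and Zic4 had r = 0.95 (permutation p = 2.0e-05, adjusted p = 0.00030) and rho = 0.86 (permutation p = 0.00021, adjusted p = 0.00105). Over the 8 samples of the parallel series they had r = 0.91 (exact permutation p = 0.000149, adjusted p = 0.000744) and rho = 0.97 (exact permutation p = 0.000595, adjusted p = 0.00223). Without the 2 samples farthest from the median of Zic1 the r were 0.85 and 0.96, and without the 103 h sample the first was 0.92. Ranked by r among 13009 genes of the first series, Zic1 was the 2nd closest to Zic4, and Zic4 was the 20th closest to Zic1; in the parallel series, with fewer samples, the ranks were 1048 and 1572 of 12324.

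Zic2 and Zic5 had r = 0.84 in the first series (permutation p = 0.00012, adjusted p = 0.000744), with rho = 0.88 (permutation p = 0.00015, adjusted p = 0.00105). In the parallel series they had r = 0.84 (exact permutation p = 0.00546, adjusted p = 0.0117) and rho = 0.79 (exact permutation p = 0.0279, adjusted p = 0.0524). In adherent culture they had r = 0.80 (permutation p = 0.00022, adjusted p = 0.000825) and rho = 0.84 (permutation p = 0.00018, adjusted p = 0.00105). Without the 2 samples farthest from the median of Zic2 the r were 0.83, 0.75 and 0.82, and the parallel series no longer passed the threshold. Many genes had a higher r with either one. Zic5 ranked 276th for Zic2 in the first series, 293rd in the parallel series and 115th in adherent culture. Zic2 ranked 256th, 1017th and 93rd for Zic5 in the same order.

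Among members that are not neighbours the relations were fewer. Of 10 such pairs, 2 passed the threshold, both in the parallel series and both negative: Zic1 with Zic5 (r = −0.88, exact permutation p = 0.00335, adjusted p = 0.00837; rho = −0.83, exact permutation p = 0.0154, adjusted p = 0.0330) and Zic4 with Zic5 (r = −0.85, exact permutation p = 0.00109, adjusted p = 0.00327; rho = −0.90, exact permutation p = 0.00516, adjusted p = 0.0148). Without the 2 farthest samples these r were −0.50 and −0.71 over 6 samples and neither passed the threshold; the first rests on those samples, and the second kept most of its size. Ranked by r from the highest, Zic5 was 11280th of 12323 genes for Zic1 and 10900th of 12324 for Zic4, so many genes were more negative. The permutations again treat successive times of 1 course as exchangeable. The other 8 pairs had r from −0.51 to 0.25. One of them, Zic4 with Zic5 in the first series, passed by rank only (rho = −0.71, permutation p = 0.00593, adjusted p = 0.0148; r = −0.42, permutation p = 0.143, adjusted p = 0.239). In all, 15 pairs were tested and adjusted together, and the difference between neighbours and the other pairs was not itself tested.

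**Figure D2:**
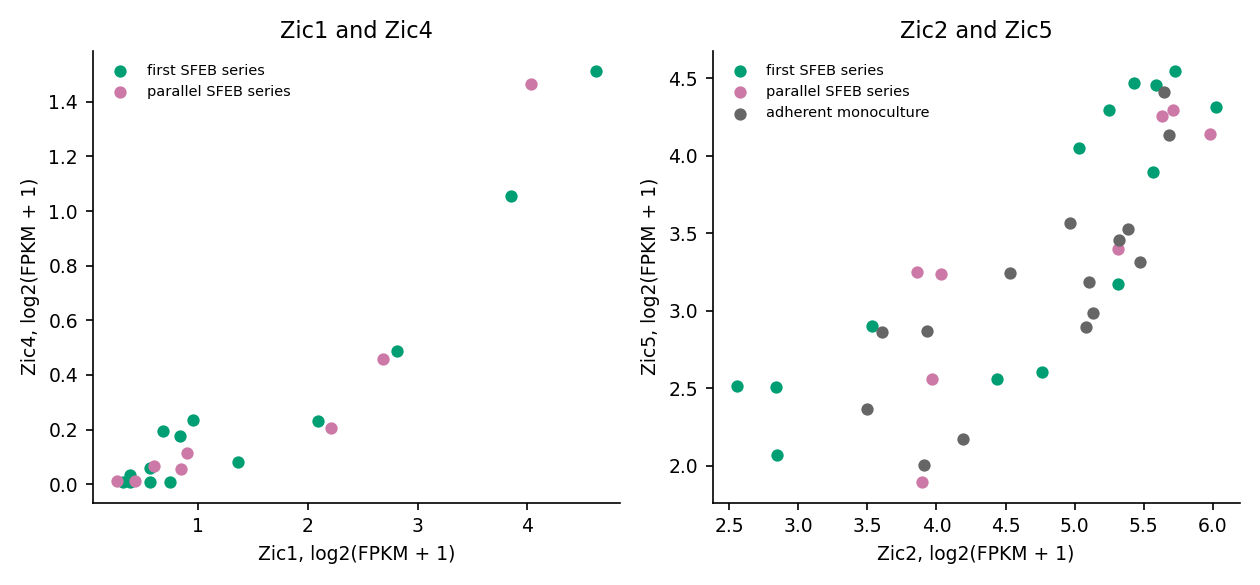
Left, Zic4 against Zic1 in the SFEB populations; right, Zic5 against Zic2 in the SFEB populations and adherent monoculture, each as log2(FPKM + 1), 1 point a library, coloured by series. Most Zic1 and Zic4 points lie in the low corner and few high late samples carry the upper end, whereas the Zic2 and Zic5 points fill the whole range.

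The genes whose course was most like each member were listed by r over the 22 SFEB populations, as a description, among 13361 genes at 1 FPKM or more in at least 3 of them; the members share library, time and batch adjustment with these genes. Closest to Zic1 were Tmem132c (r = 0.97), Ajap1 (0.97), Lhx5 (0.97), which encodes a LIM homeodomain factor of the early forebrain, Nckap5l (0.96) and Flrt3 (0.96), and in adherent culture their r with Zic1 was 0.91, 0.68, 0.58, 0.46 and 0.85. Closest to Zic4 were the Wnt inhibitor gene Apcdd1 (0.94), the forebrain homeobox gene Otx1 (0.94), Zic1 itself (0.93), Tmem163 (0.92) and 2510009E07Rik (0.92).

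Among those closest to Zic2 were Pm20d2 (r = 0.95), the potassium channel gene Kcnj3 (0.94), the kinase gene Hunk (0.94) and Fam187b (0.93), with adherent r of 0.88, 0.73, 0.91 and 0.78. Closest to Zic5 were the carbonic anhydrase gene Car2 (0.96), Mmp25 (0.96), Dtx3l (0.96), Dnmt3b (0.96), the de novo DNA methyltransferase of the primed epiblast, and Bend4 (0.96), with adherent r of 0.87, 0.81, 0.38, 0.83 and 0.51. No gene stood on the lists of both Zic2 and Zic5. Dnmt3b was highest at 42.5 h (494 FPKM) and Car2 at 68 h (219 FPKM).

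Marker lists were set beside the courses in time. In the first SFEB series 20.8% of all genes tested were called. Of formative and primed epiblast genes, 10 of 10 were called 4-fold in the first SFEB series (median fold 18.6, against 2.36 over all genes tested), led in level by Dnmt3b, Utf1 (474 FPKM at 22 h), Pim2 (412 FPKM at 68 h) and Dnmt3a (115 FPKM at 42.5 h). Of naive pluripotency genes, 9 of 9 were called. Of early neuroectoderm genes, 7 of 8 were called; Sox1, an early neural gene singled out after its values were seen, was 9.63 FPKM at 54.5 h, 38.8 at 80 h and 51.4 at 103 h. In the first series the highest sample of Zic2 thus lay between those of Dnmt3b and Sox1, and that of Zic1 was also that of Sox1. Zic2 lay between them in the parallel series (60, 84 and 106 h) and in adherent culture (53.5, 68.5 and 92.5 h) too. There Zic1 was highest later than Sox1, at 216 h and 144 h. Other list genes of the first series fell elsewhere. Of the epiblast list, Sall2 (92 h) and Sox3 (142 h) were highest after Zic2 and the rest before it. Of the neuroectoderm list, Sox2 was highest at 22 h, Pax6 and Zfp521 at 126 h, and Sox3, Nes, Hes5 and Msi1 at 142 h.

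Of dorsal neural tube and neural crest genes, 6 of 8 tested in the first series were called, and 5 of 7 and 6 of 8 in the parallel and adherent series; the first was led in level by Pax3 (29.5 FPKM at 142 h), Foxd3 (18.8 FPKM at 42.5 h), Olig3 (17.8 FPKM at 92 h) and Msx3 (14.2 FPKM at 142 h). Wnt1, chosen after its values were seen, was 12.8 FPKM at 103 h against 1.303 at 92 h, between the same samples as the step in Zic1. The summed level of the 9 listed dorsal genes was 26.2 FPKM at 92 h and 31.3 at 103 h. In the parallel series that sum was 27.5 FPKM at 84 h, 26.7 at 106 h, 27.6 at 144 h and 25.8 at 216 h, with no rise like that of Zic1. The ventral neural tube list had 1 of 4 called in the first series, 4 of 4 in the parallel series and 4 of 5 in adherent culture, and in the parallel series Foxa2 (18.2 FPKM), Nkx6-1 (20.1 FPKM) and Dbx1 (31.0 FPKM) were highest at 216 h, as Zic1 was, and Nkx6-2 (21.0 FPKM) at 144 h. In the same order of series, neurons had 6 of 7, 3 of 3 and 8 of 8 called, mesoderm and somite 2 of 4, 4 of 4 and 1 of 1, endoderm 1 of 3, 2 of 2 and 5 of 5, and fibroblast 9 of 10, 10 of 10 and 8 of 10. Of all genes tested, 20.8%, 16.7% and 22.5% were called. The ventral and endoderm counts of the first series lie near that share. Zic1 is also a somite gene, and the summed level of the 6 listed mesoderm and somite genes was 23.8 FPKM at 103 h, against 16.9 at 92 h, 9.06 at 126 h and 97.7 at 22 h. Of the 6, T (11.4 FPKM), Eomes (6.27 FPKM) and Mixl1 (2.98 FPKM), genes of the primitive streak, were at their highest at 103 h, and Tcf15 (91.7 FPKM at 22 h), Foxc2 (4.03 FPKM at 2 h) and Foxc1 (1.56 FPKM at 0 h) were highest earlier. Their part in the Zic1 level at 103 h was not tested.

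The Gli and Glis relatives of the Zic proteins had a median fold close to that of all genes. Of them 2 of 5 were called in the first series (median fold 2.51, against 2.36 over all genes tested), 1 of 5 in the parallel series (2.51, against 2.05) and 2 of 5 in adherent culture (2.28, against 2.44). Gli3, mostly a repressor of Hedgehog targets, went from 2.44 FPKM at 2 h to 38.0 FPKM at 142 h, and Gli1, itself a Hedgehog target, had its highest level of 15.5 FPKM at 22 h and its lowest of 1.45 at 92 h. Gli2 (6.39 to 17.5 FPKM) and Glis2 (8.86 to 16.8 FPKM) stayed under 4-fold. For comparison, 20.8%, 16.7% and 22.5% of all genes tested were called in the first, parallel and adherent series. Of Hedgehog targets and receptors, 5 of 7 were called in each SFEB series and 4 of 8 in adherent culture, led in level in the first series by the signal transducer Smo (60.5 FPKM at 126 h), the co-receptor Boc (42.1 FPKM at 142 h), the co-receptor Gas1 (34.5 FPKM at 142 h) and the receptor Ptch1 (28.8 FPKM at 34 h, under 4-fold).

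In single SFEB cells both listed members were at or near 0 in most cells. Values were log10(RPKM + 1) after quantile normalization. Each time point had 8 cells with no separate cultures named for them, so the cells are not replicates of a time and no test was made. Zic2 was above 0 in 18 of 64 cells and above 0.5 RPKM in 5 of 64. Its highest cell, cell 1 of 106 h, reached 1.08 (11.005 RPKM), and the next 3 were at 0.44 and 0.35 at 144 h and 0.39 at 9 h. At 60 h, when the population level was 51.6 FPKM, 1 of 8 cells was above 0 and that one was at 0.016. At 84 h, at the top of the population course with 62.2 FPKM, 2 of 8 cells were above 0, at 0.146 and 0.139.

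Zic5 was above 0 in 32 of 64 cells and above 0.5 RPKM in 12 of 64. The share of cells above 0.5 RPKM was highest at 84 and 106 h, with 4 of 8 at each, and 0 or 1 of 8 at the other 6 times. At 84 h the 8 cells ran from 0.0136 through a median of 0.193 to 2.15 (140 RPKM), with others at 1.15 and 0.94. At 106 h the highest cell was at 1.80 (61.9 RPKM) and the next at 0.46, and at 60 h the highest was at 1.43 (26.0 RPKM) and the next at 0.038. At 216 h 1 of 8 cells was above 0, at 0.048. The highest cells thus fell between 60 and 106 h, while the population level of Zic5 ran from 18.6 to 9.56 FPKM over those times.

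Detection of both genes was counted cell by cell. Above 0.5 RPKM, both were found in 1 of 64 cells (cell 1 of 106 h, the highest Zic2 cell and the highest Zic5 cell of that time), Zic2 without Zic5 in 4, Zic5 without Zic2 in 11 and neither in 48. Above 0, both were found in 9, Zic2 without Zic5 in 9 and Zic5 without Zic2 in 23. The product of the separate shares gives 0.938 cells with both above 0.5 RPKM and 9 above 0, so the genes were found together about as often as their separate rates give. The 64 cells each held between 5648 and 10437 genes above 0, and cell 1 of 106 h had 6536, the fewest of its time.

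**Figure D3:**
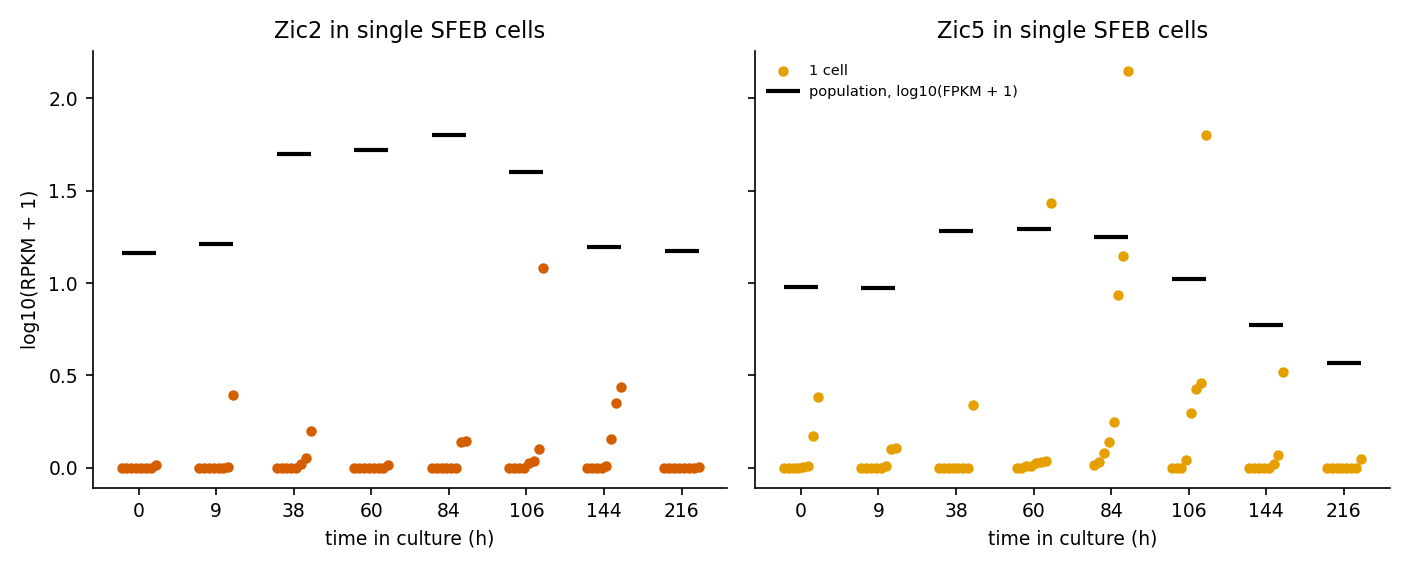
Zic2 (left) and Zic5 (right) in single SFEB cells, log10(RPKM + 1), 8 cells a time point sorted by value, with the black bar giving the population of the same time as log10(FPKM + 1). The Zic2 cells lie below their population bar at each of the 8 times, and single Zic5 cells at 60, 84 and 106 h lie above theirs.

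The gap between cells and population was set beside other genes. For each time the log10 of the mean RPKM of the 8 cells plus 1 was ranked among genes whose population level lay within 1.5-fold. Zic2 was below the median of such genes at all 8 times and Zic5 at 6 of 8. At 60 h the Zic2 cell mean was 0.0021, lower than all but 2 of 1440 such genes, whose median was 1.35, and at 84 h it was 0.040, with 8 of 1177 genes lower. At 144 h it was least extreme, with 21.6% of 3058 genes lower. Zic5 was higher than 81.4% of such genes at 84 h and than 73.9% at 106 h, and higher than 5.30% at 38 h.

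The cells and the population were separate samples made into libraries from very unequal amounts of RNA. The longest coding transcript of Zic2 is 57.2% G or C, more than 87.4% of 22611 genes, and that of Zic5 is 49.8%, more than 52.1%; the part of base composition in the low Zic2 values was not tested.

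**Figure D4:**
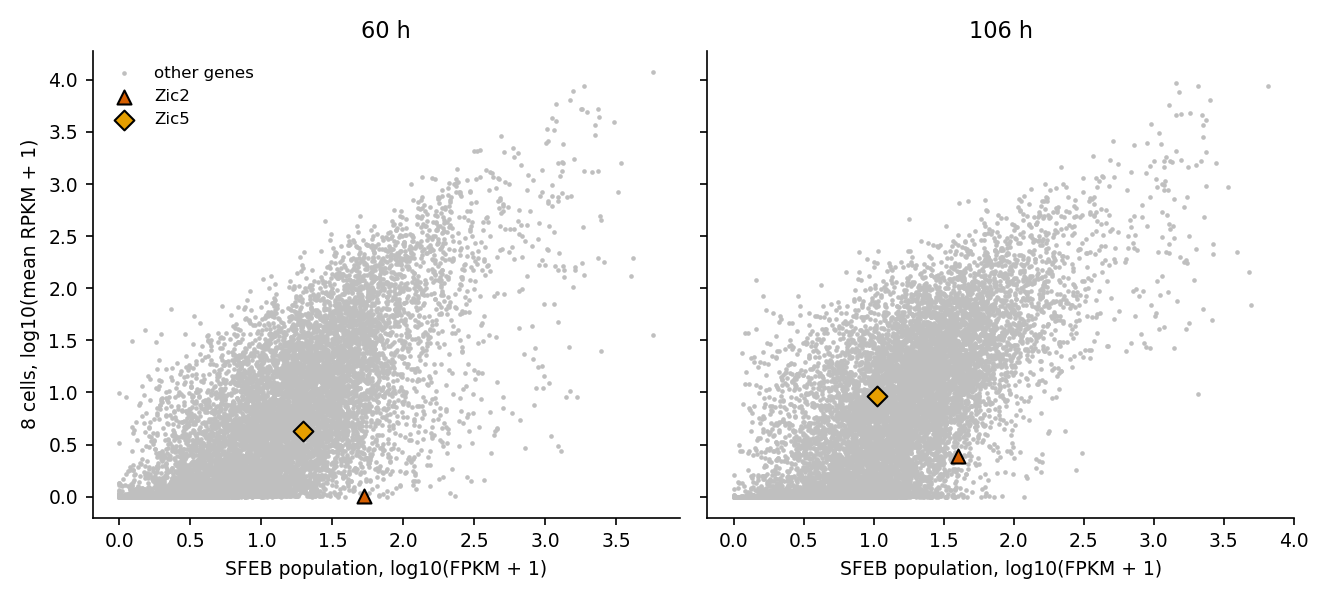
Mean of 8 cells (log10 of mean RPKM + 1) against the SFEB population (log10 of FPKM + 1) at 60 h and 106 h, 1 grey point a gene, with Zic2 and Zic5 marked. Zic2 lies at the bottom of the cloud at 60 h (0.0021) and in its lower part at 106 h (0.39), and Zic5 lies within it.

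In the E14 experiment the targeted gene was checked first. Fyn was 3.21, 2.74 and 4.00 FPKM in the 3 WT samples of day 0 and 0.598, 0.598 and 1.10 in the Fyn KO samples, and 9.44, 4.54 and 6.76 against 1.19, 1.13 and 1.58 at day 4. The groups did not overlap on either day. By limma on log2(FPKM + 1), Fyn was lower in Fyn KO at day 4 by a log2 difference of −1.74 (SE 0.24, adjusted p = 0.0193), and at day 0 the difference was −1.29 (SE 0.24, adjusted p = 0.0601), which did not pass. The gene table gives 1 value a gene, so reads outside the deletion are not separated from reads within it.

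Zic2 and Zic5 rose from day 0 to day 4 in both genotypes. Zic2 in WT was 2.59, 5.18 and 7.95 FPKM at day 0 and 53.1, 53.2 and 58.0 at day 4, and in Fyn KO it was 4.42, 4.95 and 11.1 at day 0 and 53.3, 51.8 and 66.3 at day 4. The day 0 libraries spread over a wider ratio than those of day 4, and no day 4 library overlapped day 0. Zic5 in WT was 1.67, 2.11 and 3.71 FPKM at day 0 and 10.999, 13.6 and 17.5 at day 4, and in Fyn KO it was 2.23, 1.96 and 5.49 at day 0 and 16.9, 20.6 and 19.6 at day 4. Here too the days did not overlap. The share of all genes without overlap was not counted, so the separation alone is no result about the members.

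In WT the log2 difference of day 4 against day 0 was 3.26 for Zic2 (SE 0.33, adjusted p = 0.000168) and 2.12 for Zic5 (SE 0.30, adjusted p = 0.000935). Both tested members were thus called higher, where 15.5% of 12257 genes were. In Fyn KO the difference was 2.98 for Zic2 (SE 0.33, adjusted p = 0.000353) and 2.33 for Zic5 (SE 0.30, adjusted p = 0.000738), and 11.8% of genes were called higher. These shares rest on all libraries: calls in either direction numbered 3166 in WT, but 1831 without WT day 0 replicate 2 and 1991 without WT day 0 replicate 3. In Fyn KO they numbered 2370, but 1041 and 1281 without day 0 replicates 2 and 1 of Fyn KO and 1150 without day 4 replicate 3. On FPKM + 1 these are folds of 9.55 and 4.36 in WT and of 7.92 and 5.04 in Fyn KO, and the rise of Zic2 ranked 46th in WT and 53rd in Fyn KO among the genes tested. An exact permutation test of 3 against 3 samples cannot go below 0.1, which each of these reached.

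Between genotypes neither member passed the test. Leaving out 1 library could turn the direction of each difference below, except that of Zic5 at day 4. At day 4 the log2 difference of Fyn KO against WT was 0.05 for Zic2 (95% interval −0.67 to 0.78, adjusted p = 0.971 by limma) and 0.43 for Zic5 (95% interval −0.23 to 1.10, adjusted p = 0.613), with 0.0734% of genes called in either direction. At day 0 it was 0.32 for Zic2 (95% interval −0.40 to 1.05, adjusted p = 0.699) and 0.22 for Zic5 (95% interval −0.44 to 0.89, adjusted p = 0.793), with 0.171% called (21 genes, and from 4 to 128 when 1 library was left out). The change over time in Fyn KO less that in WT was −0.27 for Zic2 (95% interval −1.30 to 0.76) and 0.21 for Zic5 (95% interval −0.73 to 1.15), both at adjusted p = 0.997; 0.0% of genes were called for this difference, and 537 had an unadjusted p under 0.05.

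The early neural genes Sox1 and Pax6 were singled out at day 4 after their values were seen. Sox1 was 47.2, 7.81 and 11.6 FPKM in WT and 0.990, 1.27 and 7.08 in Fyn KO at day 4, and Pax6 was 26.8, 3.71 and 6.77 against 0.228, 0.475 and 2.37. Neither passed the test between genotypes. By limma Sox1 differed by −2.40 (SE 0.62, adjusted p = 0.156) and Pax6 by −2.46 (SE 0.55, adjusted p = 0.117). The groups did not overlap, for Sox1 only by 7.81 against 7.08 FPKM. The share of all genes without overlap was not counted, and 1483 of 12257 genes had an unadjusted limma p under 0.05 here. WT replicate 1 of day 4, with the highest Sox1, had the lowest Zic5 of the day 4 samples, while its Zic2 lay within the range of the others. That library also stood apart in its summed level (909369 FPKM, of which the small nucleolar RNA gene Snord22 was 255503; Snord22 was also 158601 in WT replicate 2 and 218997 in Fyn KO replicate 2), and without it the WT rise was 3.28 for Zic2 and 2.27 for Zic5.

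At day 0 replicate 3 was the highest of its genotype for Zic2 and Zic5, and also for Otx2, an epiblast and forebrain homeobox gene chosen after its values were seen. Fyn KO replicate 3 had 12.4 FPKM of Otx2, against 0.397 and 0.395 in the other Fyn KO libraries, and WT replicates 1 to 3 had 1.02, 8.57 and 9.00 FPKM. The summed fibroblast markers were 92.4 FPKM in Fyn KO replicate 3, against 55.8 and 56.6, and 159.8 FPKM in WT replicate 3, against 74.1 and 93.4. Sparc, which is not limited to fibroblasts, was 84.6 and 158.5 FPKM of the sums of replicate 3, and the collagen genes Col1a1, Col1a2 and Col3a1, also chosen after their values were seen, were all under 1 FPKM at day 0. The part of these genes in the spread of the members at day 0 was not tested.

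Zic1 and Zic4 stayed under the filter of 1 FPKM in 3 of 12 libraries and were not tested in the main fit. Without the filter neither passed in any comparison (Zic1 in WT over days, log2 difference 0.10, adjusted p = 0.505 by limma). Zic1 was listed above 0 in 6 of 12 libraries, at 0.0741 and 0.0386 FPKM in WT day 0, 0.360 and 0.0154 in WT day 4, and 0.0261 and 0.0612 in Fyn KO day 4. The highest, 0.360 FPKM, was again WT replicate 1 of day 4. Zic4 was listed above 0 in 1 of 12, at 0.0104 FPKM in WT day 0. A value of 0 in such a table is an estimate, and the table gives no read counts to bound it.

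The lists gave the setting in E14. From day 0 to day 4 in WT, 9 of 10 formative and primed epiblast genes rose (median log2 difference 3.33, against 0.08 over all genes), 10 of 10 naive pluripotency genes fell, and 5 of 8 early neuroectoderm genes rose, where 15.5% of all genes were called higher and 10.3% lower. In Fyn KO 8 of 10 formative and primed epiblast genes rose (median 3.18, against 0.05), 8 of 10 naive pluripotency genes fell, and 0 of 8 early neuroectoderm genes passed in either direction, where 11.8% of all genes were called higher and 7.56% lower. In the test of the difference itself no listed gene passed. Gli3 was the 1 of 5 Gli and Glis relatives that rose in WT (log2 difference 1.82, SE 0.40, adjusted p = 0.00763 by limma), and 0 of 5 passed in Fyn KO. The dorsal neural tube and neural crest list had 2 genes above the filter, Foxd3 and Tfap2a, and both fell in WT. Below the filter, and so untested, Olig3 was 0, 0.0665 and 0.171 FPKM at day 0 and 6.00, 0.521 and 0.505 at day 4 in WT, Pax3 was 0, 0.0383 and 0.0164 and then 4.43, 0.115 and 0.214, and Wnt1 was 0 in all 3 and then 2.72, 0.149 and 0. In each of these 3, chosen after their values were seen, the high library was WT replicate 1 of day 4. Other genes of the list below the filter did not have this pattern: Msx2 was 1.31, 0.652 and 0.786 FPKM at day 0 and 0.517, 0.707 and 0.656 at day 4, and Snai2 was 0.793, 0.297 and 0.560 and then 0.617, 0.179 and 0.274.

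**Figure D5:**
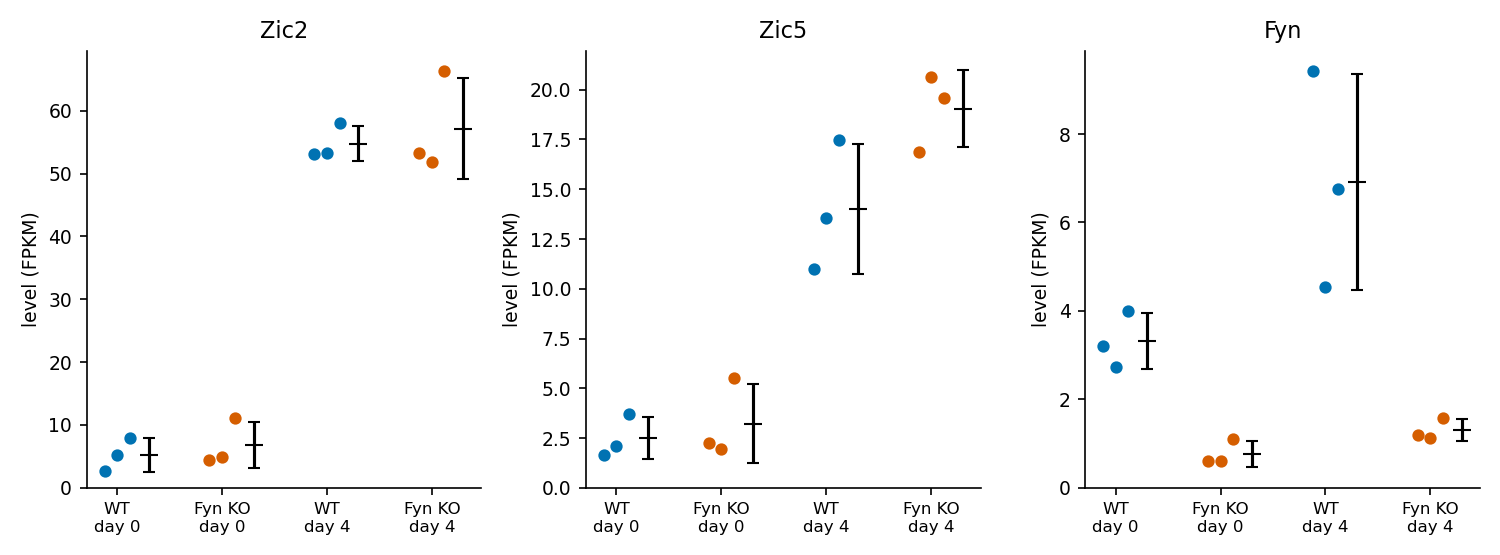
Zic2, Zic5 and Fyn in E14 cells (FPKM), 3 libraries a group as points (WT blue, Fyn KO orange), with the mean and SD of the 3 libraries beside them. Zic2 means were 5.24 and 6.81 FPKM at day 0 and 54.8 and 57.1 at day 4 in WT and Fyn KO, and the Fyn points of the genotypes do not overlap on either day.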

How the data were processed

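Expression was analysed in 22 SFEB populations, 15 adherent populations, 64 single cells and 12 E14 samples. Per the labels, libraries were made with the Nextera XT kit; the submitters' processing notes list TopHat2 2.0.8b and Cufflinks 2.1.1 with mm9, or mm10 for E14, while the study's methods name earlier versions of both tools. The authors deposited FPKM for adherent and E14 samples, and for SFEB populations FPKM adjusted between batches with ComBat, in which 1256 values below 0 were set to 0 here (0 of a member). The authors deposited single cells as log10(RPKM + 1) after quantile normalization. The study's methods state a filter of 0.5 RPKM in at least 8 cells, but 2008 of the 11449 listed genes, Zic2 among them, were above 0.5 RPKM in fewer than 8 cells of the deposited table. Read depth was not given in the tables used. Samples were grouped from the labels, and every column was mapped.

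E14 groups were compared with limma 3.58.1 in R 4.3.3 on log2(FPKM + 1) over all 12 samples, with genes at 1 FPKM or more in at least 3 samples, a trended variance and Benjamini-Hochberg adjustment at 0.05. Correlations used 100000 permutations, or all orders for 8 samples (Python 3.11.15, scipy 1.17.1), and folds used FPKM + 1. The limma and permutation steps were tested on simulated data. Same-numbered E14 replicates deviated together in WT over days (r 0.20, 0.22 and 0.22) and between genotypes at day 4 (0.14, 0.26 and 0.24), from the data and not the labels.

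The 4 members and all lists were chosen with earlier results of these data known. Named genes were all members, Fyn, per member the 5 genes of highest r over the SFEB populations (1 of them is not reported here), and at most 4 a list by level; others are said to be chosen after their values were seen.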

Additional observations from a re-analysis of the deposited data

Results flagged for a closer look

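In 12 of 16 sets of 8 single cells, the highest cell stood farther from the next than the Dixon limit for 8 values allows. Chance gives about 1 in 20 for values drawn from a normal distribution, which does not apply here. In 5 of the sets (Zic2 at 0, 60 and 216 h, Zic5 at 38 and 216 h) the other cells were all at 0, so that any value above 0 passes. The cells of a time are not replicates, and the values are given as a description. For Zic2 these cells were at 0.0169 at 0 h, 0.393 at 9 h, 0.199 at 38 h, 0.0163 at 60 h, 1.08 at 106 h and 0.00408 at 216 h, as log10(RPKM + 1), with the next cell at 0, 0.00736, 0.0537, 0, 0.105 and 0. For Zic5 they were at 0.386 at 0 h, 0.342 at 38 h, 1.43 at 60 h, 1.80 at 106 h, 0.519 at 144 h and 0.0478 at 216 h, with the next cell at 0.173, 0, 0.0381, 0.461, 0.0675 and 0.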

How the results depend on the processing

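Of 363 values under alternatives, 320 kept their direction and call, 16 lost a call, 8 gained one, 17 changed direction and 2 moved; unless said otherwise the cause was not tested. The day 4 against day 0 calls of Zic2 and Zic5 held under every alternative run (pseudocount, no filter, scaling, 2 groups alone, replicate block, leaving out each library). Leaving out each library gave 2.91 to 3.56 for Zic2 and 1.95 to 2.36 for Zic5 in WT, and 2.77 to 3.35 and 2.12 to 2.69 in Fyn KO. The genotype differences, never called, ranged from −0.0572 to 0.119 (Zic2) and 0.28 to 0.60 (Zic5) at day 4 and from −0.0392 to 0.632 and −0.13 to 0.46 at day 0, and the interaction from −0.579 to 0.0923 and −0.0247 to 0.568. Directions turned without Fyn KO day 4 replicate 3 (Zic2, day 4, −0.0572), without Fyn KO day 0 replicate 3 (day 0, Zic2 −0.0392, Zic5 −0.13; interaction, Zic2 0.0923), without WT day 0 replicate 1 (Zic2, day 0, −0.0261; interaction 0.0792) and without WT day 0 replicate 3 (interaction, Zic5, −0.0247).

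With the replicate block no member's call changed (Zic2 in WT, adjusted p = 8.87e-05 by limma). Over all genes the calls between genotypes at day 0 went from 21 to 38, with pairing not seen for that contrast, and those of the interaction from 0 to 2. Calls between genotypes at day 4 (9) were 24 without the filter, 17 after quantile normalization and 0 with 2 groups alone, and those at day 0 were 35 without the filter and 2 with 2 groups alone; the interaction had 1 without the filter. With 1 library left out, calls over all genes ran from 1831 (without WT day 0 replicate 2) to 3528 for WT over days, from 1041 (without Fyn KO day 0 replicate 2) to 3063 for Fyn KO over days, from 5 (without Fyn KO day 4 replicate 1) to 14 (without WT day 4 replicate 3) between genotypes at day 4, and from 4 (without WT day 0 replicate 2) to 128 (without WT day 0 replicate 1) at day 0. The interaction had 4 without WT day 0 replicate 1, 1 without WT day 4 replicate 3 and 0 otherwise.

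With a pseudocount of 0.1 the Zic4 folds were 18.5 and 16.95, by construction, since its levels lie under 1 FPKM. With the second lowest and second highest samples, folds were 3.89 (Zic5) in the first series, 3.52 (Zic2) and 3.24 (Zic5) in the parallel series, and 3.95 (Zic1) and 3.902 (Zic5) in adherent culture, where Zic1 without its highest sample was also 3.95. Against log2(time + 1), r was 0.51 (Zic1, lost), 0.34 (Zic4, lost) and 0.87 (Zic2, gained) in the first series, 0.54 (Zic1, lost), 0.46 (Zic4, lost) and 0.32 (Zic2, turned) in the parallel series, and 0.61 (Zic1, lost) and 0.12 (Zic5, turned) in adherent culture. Without the 2 farthest times, r was 0.46 (Zic4, lost) and 0.83 (Zic2, gained) in the first series, 0.82 (Zic4, lost) in the parallel series, and 0.65 (Zic2, gained) and 0.18 (Zic5, turned) in adherent culture. Pooling both SFEB series turned Zic5 of the first (−0.23) and Zic2 of the parallel series (0.28).

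Among pairs, Zic4 with Zic2 in the first series turned to −0.13 (pseudocount 0.1), −0.35 (without the 2 farthest samples) and −0.16 (pooled). Without the 2 farthest samples, Zic4 with Zic5 in the first series was −0.68 (gained), Zic1 with Zic5, Zic4 with Zic5 and Zic2 with Zic5 in the parallel series were −0.50, −0.71 and 0.75 (lost), and Zic1 with Zic5 in adherent culture was 0.16 (turned). Pooled, Zic1 with Zic2 was −0.0401 (turned), Zic1 with Zic5 −0.53 and Zic4 with Zic5 −0.57 (both gained). Cells counted at any value above 0 numbered 18 (Zic2) and 32 (Zic5), and above 0.5 RPKM 5 and 12. The tables hold no read counts, so no floor under the values at 0 was computed.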
